A study of Caenorhabditis elegans with 3 samples.

Results

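RNA reads from *Caenorhabditis elegans* strain HC566 held 138 distinct joins that run from the plasmid strand encoding *sur-5::gfp* onto the opposite strand. They were chosen from the RNA junction list by position alone. The mapping reference is the plasmid pTG96 followed by its own reverse complement, and a join belongs here if it leaves the plasmid and continues in the reverse complement. Joins that run from the reverse complement back into the plasmid go against the order of this reference. They cannot be listed, so the joins are not a full survey of strand switches. Mirror images of a join were counted once, with the higher read number. Joins that give the same joined sequence at moved positions were kept apart, and joining them leaves 137. The 138 joins are part of 372 distinct RNA junctions and of 1231 distinct junctions in all 3 libraries. A join is named below by the pair of plasmid positions it connects, counted from base 1 of the 12006 bp plasmid, and its span is the distance between those positions. Such a join shows that sequence of both strands lay side by side in a sequenced molecule, and does not tell an inversion within a plasmid copy from a connection between copies.

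The strain carries pTG96 as an integrated, repetitive transgene, and all 3 libraries came from it. Worms of mixed stages were grown at 20 °C in liquid on *E. coli* OP50 and freed of bacteria by floating on sucrose. Poly-A-selected RNA gave the library described here, and paired-end DNA and single-read DNA gave 1 library each. The study asked which deleted, spliced or inverted forms the transgene DNA and its RNA contain. With 1 library per group there is no spread between replicates and no test of a condition. Intervals are exact 95% Poisson intervals for counts and exact 95% binomial intervals for shares, and cover counting error only. The worms also carry their own *sur-5* gene on chromosome X, whose reads cannot be told apart from those of the plasmid's *sur-5*.

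The protein SUR-5 resembles enzymes that make acetoacetyl-CoA, and GFP is the fluorescent reporter from jellyfish. Copies of a plasmid in a *C. elegans* array can lie in either direction, so a transcript that runs from a copy into an inverted neighbour holds a stretch and its own complement. Double-stranded RNA is the trigger of RNA interference in this animal. Introns nearly always begin with GT and end with AG, and *C. elegans* introns commonly end with TTTCAG.

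The RNA list held 509 junctions with 616560 reads, of which 182 junctions switched strand. They reduced to 138 joins (95% interval 116 to 163) with 18740 reads (18473 to 19010), which is 37.1% of distinct RNA junctions (32.2 to 42.2) and 5.51% of their reads (5.43 to 5.58). Both mirror images were listed for 44 joins and a single image for 94. The lower image had a median of 98.2% of the reads of the higher, and 30 of the 44 pairs were within 10% of each other. The lowest such share was 9.09%. Reads per join ranged from 1 to 2170 with a median of 22.5, and 43 joins had under 10 reads. The 5 joins with the most reads held 37.6% of the reads and the 20 with the most held 76.5%. Of the 138, 30 (21.7%) had 100 or more reads, against 30.4% of all RNA junctions.

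Of the 20 joins with the most reads, 12 had both positions in *sur-5*, a share near that of all 138 joins, of which 78 did. The sequences below are the joined bases of 8 *sur-5* joins, 15 bases on the strand of *sur-5* up to the lower position and then 15 bases on the other strand from the upper position. Capitals mark bases that are identical at both positions, within which the join could equally be placed elsewhere. They were read from the deposited plasmid sequence and are shown because they carry the most reads in *sur-5* or recur in DNA.
5876 to 6089: cagtctactcgaCAGGaacaaacactgaca
7229 to 7261: tgaaaatggttccggGgctgcctggatact
6742 to 6775: cctcaatgcCATCACggtacttcttgccat
6020 to 6075: tctggaggaACTGACActctcctggcgtga
7287 to 7298: actccggaacgACATGTCgcggggacatgt
7229 to 7237: tgaaaatggttccgGctcttgacccggaac
7285 to 7287: aaactccggaacGACATGTCgttccggagt
5064 to 5084: attccaaaggcaatGGTTCctccgaccgtg

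In *sur-5*, the join of 5876 and 6089 had 1379 reads (95% interval 1307 to 1454), and 1377 reads in its mirror image. It crosses the intron that starts at 5933 and has a span of 213 bp. All the other *sur-5* joins printed above have spans of at most 55 bp, within a single exon. The join of 7229 and 7261 had 1357 reads (1286 to 1431) at a span of 32 bp. That of 6742 and 6775 had 1117 reads (1052 to 1184) at 33 bp. That of 6020 and 6075 had 1021 (959 to 1086) at 55 bp. These 4 joins are the only ones in *sur-5* with over 1000 reads, and none of them has equal positions in a DNA list.

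The exon that starts at 7180, the last of *sur-5* before *gfp*, held more of these joins than any other exon or intron of the gene model. In it, 20 joins had both positions, 15 of them with a span of at most 100 bp, with 5175 reads in all. A cluster lay around 7285 to 7300. The join of 7287 and 7298 had 908 reads (850 to 969), that of 7285 and 7287 had 518 (474 to 565) and that of 7285 and 7300 had 468 (427 to 512). All 3 share the bases ACATGTC at the join, as the sequences above show for the first and second. The join of 7229 and 7237, with a span of 8 bp, had 705 reads (654 to 759).

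In *gfp*, the join of 8370 and 8405 had 576 reads (530 to 625) at a span of 35 bp. That of 8201 and 8315, whose positions lie on either side of the last *gfp* intron, had 557 (512 to 605). That of 7979 and 7994 had 520 reads (476 to 567), with 366 in its mirror image. The join of 8381 and 8496 had 270 (239 to 304) at a span of 115 bp, and that of 8201 and 8207 had 182 (157 to 210) at 6 bp. All of them have both positions in *gfp* exons. A *gfp* join can come from the transgene only, and 12 joins with 2260 reads had both positions in *gfp*.

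The join with the most reads of all lay after the *gfp* stop codon. It connects 8728 and 8805 at a span of 77 bp and had 2170 reads (2080 to 2263), listed in a single mirror image. Its neighbours 8722 to 8728, 8718 to 8728 and 8726 to 8781 had 62, 47 and 47 reads. Downstream of the stop codon, 19 joins had both positions, with 2677 reads. The part holding the vector was not divided further.

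Of the 138 joins, 74 were hairpin-like, defined as a span of at most 100 bp, so that a stretch is followed closely by its own complement. This is 53.6% (44.9 to 62.1) of the joins, and they held 68.7% (68.0 to 69.3) of the reads. In paired-end DNA, 16.5% of 601 strand-switching joins were hairpin-like (13.6 to 19.7), and in single-read DNA 23.8% of 21 (8.22 to 47.2). The median span was 82 bp in RNA (quartiles 36 and 657), 216 bp in paired-end DNA (135 and 281) and 253 bp in single-read DNA (102 and 1603). The RNA share lies above the interval of the paired-end share. The libraries differ in source, read layout and depth, whose part in this was not tested.

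Spans over 100 and up to 300 bp, where paired-end DNA had most of its joins, were uncommon in RNA. Of the paired-end joins 387 of 601 fell there, and of the RNA joins 24 of 138. At spans of 50 bp or less the order turned, with 9 RNA joins of at most 10 bp and 38 of 11 to 50 bp, against 3 and 37 in paired-end DNA. RNA also had 31 joins over 1000 bp. The RNA joins had 1586 reads at spans of at most 10 bp, 6389 at 11 to 50 bp, 3236 at over 100 and up to 300 bp and 2288 over 1000 bp.

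**Figure D1:**
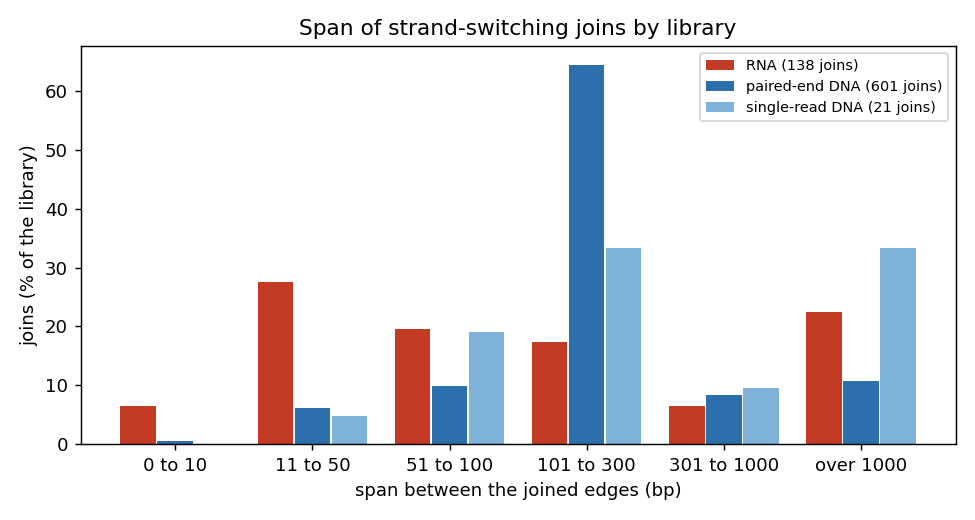
Share of the strand-switching joins of each library (vertical axis, percent) in 6 classes of span (horizontal axis, bp), for RNA (138 joins), paired-end DNA (601) and single-read DNA (21). Paired-end DNA has 387 joins over 100 and up to 300 bp, where RNA has 24, and RNA has 9 joins of at most 10 bp against 3.

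Most hairpin-like joins were aligned over bases of both strands. The list gives the longest aligned stretch on each side of a join. In 65 of the 74 hairpin-like joins, those stretches covered at least 20 plasmid positions on both strands, with a median of 57 positions and a highest value of 114. In 8 there was no position in common. The stretches on the sides of a join are maxima over reads and need not come from the same read. Aligned sides reached 125 bases. Of the hairpin-like joins, 70 had both positions in the same part of the plasmid (upstream of *sur-5*, *sur-5*, *gfp* or downstream), against 39 of the 64 longer joins. Positions at most 100 bp apart can differ in part only across a boundary, so this difference follows largely from the definition.

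**Figure D2:**
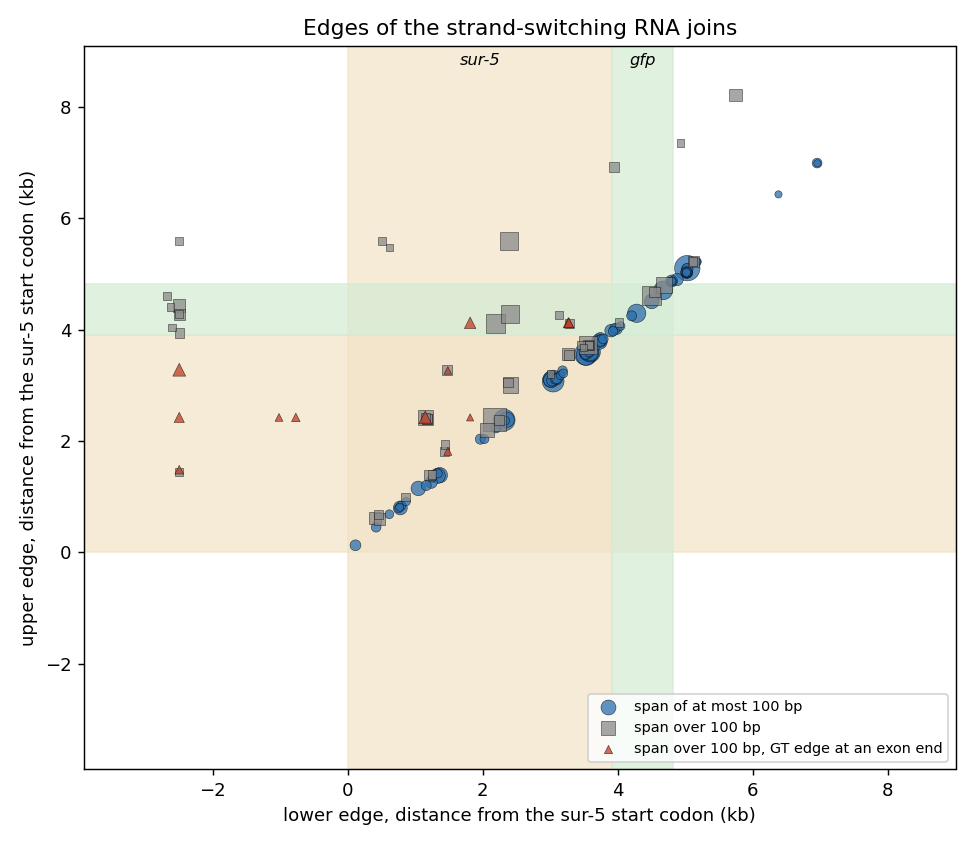
Each point is 1 of the 138 strand-switching RNA joins, by the distance of its lower position (horizontal axis, kb) and its upper position (vertical axis, kb) from the *sur-5* start codon. Larger symbols have more reads, shaded bands are *sur-5* and *gfp*, circles are spans of at most 100 bp, squares longer spans and triangles the 12 joins whose GT position is an exon end. The 74 hairpin-like joins lie along the diagonal, and the 8 joins of position 1206 stack upstream of *sur-5*.

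Among the 31 joins over 1000 bp, those with the most reads fused *sur-5* to *gfp* in opposite directions. The join from 5883, a *sur-5* exon base, to 7814, a *gfp* exon base, spans 1931 bp and had 585 reads (539 to 634). A second such join, from 6099 to 7979, had 507 reads (464 to 553). The next by reads left *sur-5* at 6089 for 9289, after *gfp*, and had 419 (380 to 461). Over all spans, not only those over 1000 bp, 8 joins with 1288 reads connected *sur-5* to *gfp*. The shortest of them, 7600 to 7682, spans 82 bp. Upstream sequence was joined to *sur-5* in 6 joins with 142 reads and to *gfp* in 7 with 129. The longest spans among joins with at least 10 reads were 6927, 6768, 6431, 5774 and 4917 bp, and all 5 have position 1206, upstream of *sur-5*, as their lower end. They reach 8133 (75 reads), 7974 (31), 7637 (14), 6980 (94) and 6123 (25).

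Some joins with a GT-AG motif began at an exon end, at a share not above that of all GT-AG RNA junctions. On this reference the GT of a GT-AG join is always on the strand of *sur-5* and *gfp*, and the AG on the other. Of 49 GT-AG joins, 12 had their GT directly after the last base of an exon, where an intron of the gene model begins (24.5%, 13.3 to 38.9). Of the 630 plasmid positions followed by GT, 11 are such exon ends (1.75%). Among strand-switching GT-AG joins of paired-end DNA, 1 of 130 had its GT there (0.769%). Among all 116 GT-AG RNA junctions, which include the introns themselves, the share was 37.1%. The 12 joins reuse 4 exon ends, so their share of joins is not directly comparable with the share of the 630 positions. The interval counts joins at a reused exon end as separate draws. The gene model was built from RNA junctions, its exons are transcribed, and RNA coverage along the plasmid was not used, so its part in these shares was not tested.

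The exon ends used were those of 4 of the 11 introns. The sequences show the 3 in *sur-5*, as 15 exon bases and 15 intron bases with the GT in capitals. After them stand 3 of the positions they were joined to, read on the other strand, as 15 bases that are skipped, ending in AG in capitals, and 15 that are kept.
exon end 5183: gatgatgtataattgGTgagattttgtttt
exon end 6123: cattcaattacatggGTacgtgcaaaatga
exon end 6980: agctggaagacttgtGTaagttgatcatta
AG at 4848: catcgaattttacAGatgtgaaggtgtcgg
AG at 5513: cgtgatcaatttcAGcagcgccaatcaaaa
AG at 6967: acacaagtcttccAGctacaatgcaatcag

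The exon end at 6123 was joined to 5 positions of the other strand. They were 4848 with 91 reads, 1206 with 25, 2932 with 7, 2683 with 3 and 5513 with 1. The usual intron at this exon end, 6124 to 6670, had 14455 reads. Strand-switching reads made up 0.866% (0.723 to 1.03) of the GT-AG reads leaving it. The exon end at 6980 was joined to 1206 with 94 reads (76.0 to 115), against 36209 reads of its intron, or 0.259% (0.209 to 0.317). The exon end at 7823, the first of *gfp*, was joined to 5513 with 52 reads, to 6967 with 27 and to 6975 with 19. That is 0.380% (0.309 to 0.463) of its GT-AG reads, against 25673 reads of its intron. The exon end at 5183 was joined to 1206 with 8 reads, to 5513 with 4 and to 6967 with 2, or 0.0947% (0.0518 to 0.159).

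Strand-switching reads thus stayed near or below 1% of the GT-AG reads leaving any of these exon ends. This does not hold for GT positions outside the gene model, described below. At the other 7 exon ends of the gene model no strand-switching GT-AG join was listed. A count of 0 there allows a share of up to 0.0253% at the *sur-5* exon end 3918 and 0.00877% at the *gfp* exon end 8243, the highest and lowest of these limits. The 12 joins had 333 reads in all and 1 to 94 each, and 6 of them had at least 10. Their spans were 330 to 5774 bp with a median of 2047 bp, so none was hairpin-like, while 19 of the other 37 GT-AG joins were. They had at most 1 identical base, and none was in a DNA list. In 10 of the 12 at least 50 bases were aligned on both sides. Besides these, 2 AT-AC joins have an exon end as a position, 4176 to 4299 with 46 reads and 4846 to 6123 with 12.

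**Figure D3:**
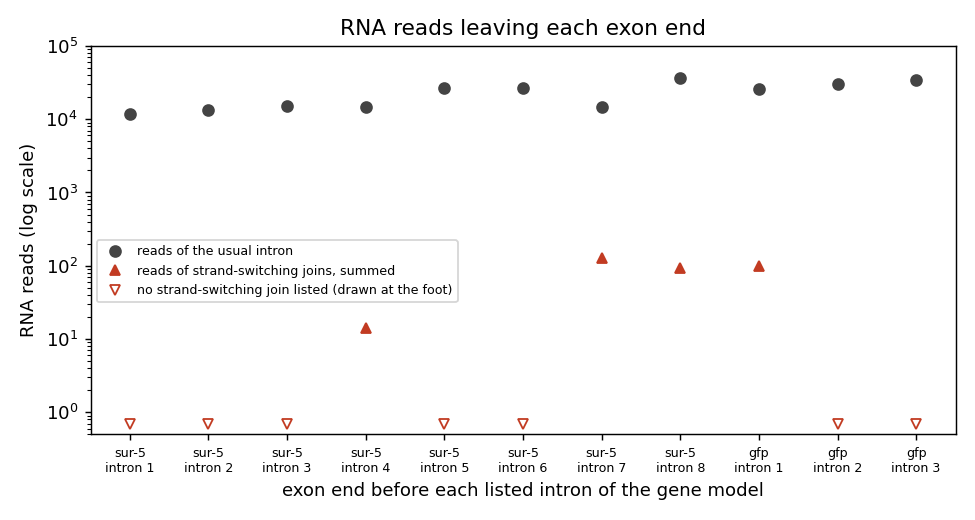
RNA reads (vertical axis, log scale) at the exon end before each of the 8 *sur-5* and 3 *gfp* introns of the gene model, in order along the gene. Circles are reads of the usual intron, filled triangles the summed reads of strand-switching GT-AG joins, at 4 exon ends with 14, 127, 94 and 98 reads, and open triangles drawn at the foot, below the counts, mark the 7 exon ends with none listed.

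The joined positions on the other strand were reused. Position 1206, upstream of *sur-5*, was the AG end of 8 joins with 257 reads in all, with GT ends at 5140, 5183, 6123, 6980, 7637, 7974, 8133 and 9289. Position 5513, inside the intron that starts at 5184, was the AG end of 4 joins with 68 reads. Both are preceded by TTTCAG on the other strand, as is 2932. Of the 12 exon-end joins, 7 ended with TTTCAG (58.3%, 27.7 to 84.8), at only these 3 positions, against 6 of the other 37 GT-AG joins. Of the 629 AG on that strand, 9 are preceded so (1.43%). The 12 joins use 7 distinct AG positions, so their share of joins is not directly comparable with this share of positions. The interval counts joins at a reused position as separate draws. The motif was searched on the strand of the AG alone, and a match is a description of the letters.

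Some of these AG positions also ended junctions that stay on the other strand. Of 67 GT-AG RNA junctions within a copy, 59 were on the strand of *sur-5* and *gfp* and 8 on the other. Of those 8, 3 ended at 1206, and the most read ran from 2545 to 1206 with 53 reads. Another ran from 10262 to 6089 with 23 reads, and 6089 is the AG end of the strand-switching joins with 5876 (1379 reads) and 9289 (419 reads). The most read junction of the other strand, from 5749 to 5692 with 829 reads, shares no position with a strand-switching join. In all, 10 of the 49 GT-AG joins used an AG position of a same-copy junction, and 21 used a GT position of one. The GT at 9289, after *gfp*, also begins a same-copy junction from 9290 to 11945 with 1403 reads. Its 3 strand-switching joins had 428 reads, or 23.4% (21.5 to 25.4) of the GT-AG reads leaving it. Among GT positions outside the gene model with junctions of both kinds, this share ranged from 23.3% at 5725 to 97.0% at 5876. Same-copy reads there were 33 and 43.

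The joins lay in exons far more than in introns. Of the 276 positions, 165 were in *sur-5* exons (59.8%, 53.7 to 65.6), which are 19.5% of the plasmid, and 42 in *gfp* exons (15.2%), which are 6.32%. Introns of *sur-5* held 8 (2.90%, 1.26 to 5.63) and make up 13.1% of the plasmid, and those of *gfp* held 1. In paired-end DNA 20.7% of positions were in *sur-5* exons and 16.7% (14.7 to 19.0) in its introns. Both positions were inside *sur-5* or *gfp* in 98 joins (71.0%, 62.7 to 78.4), with 15264 reads. In 90 of them both were in exons, with 15144 reads, in 8 a position was in an intron, with 120 reads, and in none were both in introns. Introns shorter than 50 bp are below the skips listed and count as exon here. A junction after the stop codon, 8608 to 8658 with 28459 reads, is outside the gene model and counts as downstream. The RNA was poly-A-selected and its coverage along the plasmid was not used, so the part of coverage in these shares was not tested.

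Along *sur-5* the density of positions varied. The exon from 5988 to 6123 held 15.4 positions per 100 bp, that from 6671 to 6980 held 11.3 and that from 7180 to 7610 held 10.2. The exon from 3699 to 3918, which begins with the start codon, held 0.909, from a single join, 3815 to 3824, with 36 reads. The 547 bp intron from 6124 to 6670 held none, while paired-end DNA had 13.5 positions per 100 bp there. The 420 bp intron from 5184 to 5603 held 4, all of them position 5513, against 15.2 per 100 bp in paired-end DNA. RNA coverage by position was not used here, so density per transcribed read was not measured.

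Splice motifs were present at nearly all joins, and the mapper's settings for them are not known here. AT-AC ends were found in 52 joins with 11154 reads, GT-AG in 49 with 6369, GC-AG in 28 with 1120 and none in 9 with 97. The share with a motif was 93.5% (88.0 to 97.0), against 57.5% of all RNA junctions. Strand-switching DNA joins had a similar share, 94.7% of 601 in paired-end DNA and 95.2% of 21 in single-read DNA. AT-AC was the most frequent motif there too, at 59.9% and 76.2% of joins. A motif is thus not particular to the RNA joins. Among hairpin-like joins 32 were AT-AC, 23 GC-AG and 19 GT-AG. Among the 31 joins over 1000 bp 17 were GT-AG, 7 AT-AC, 1 GC-AG and 6 without a motif. Of the 20 joins with the most reads, 15 were AT-AC.

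For all 9 joins without a motif, another RNA junction that has a motif skipped the same length of reference. The one with the most reads, 9441 to 11915 with 84, has the length, 2656 bp, of the same-copy junction from 9290 to 11945. The next 4 by reads, 1029 to 8310, 1076 to 8104, 6830 to 7960 and 7156 to 7429, had 3, 2, 2 and 2 reads. Equal skipped lengths also occur among motif joins. For strand-switching joins this means an equal midpoint, and the 138 joins had 106 midpoints. In 23 groups, 55 joins with 8274 reads shared a midpoint with another. The largest group holds 7261 to 7427 with 469 reads, 7264 to 7424 with 31, 7268 to 7420 with 4 and 7273 to 7415 with 9. Whether members of a group are separate molecules was not tested.

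Identical bases at the join were few. The mean was 1.70 bases and the median 1, and 52 joins had none. The joins with the most were 8818 to 8920 with 12, 8201 to 8207 with 10 and 7285 to 7287 with 8, followed at 7 by 6020 to 6075, 7285 to 7300, 7287 to 7298 and 8628 to 11056. At least 5 identical bases were found in 17 joins (12.3%, 7.34 to 19.0), against 4.84% of all RNA junctions. With moved positions joined, 16 were left. In paired-end DNA 35.1% (31.3 to 39.1) of strand-switching joins had at least 5, with a mean of 3.61 bases.

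Of the 138 joins, 13 had both positions equal in a DNA list (9.42%, 5.11 to 15.6), against 5.11% of all RNA junctions. All RNA junctions include the 138. Strand-switching joins were 601 of the 809 distinct paired-end junctions, so same-copy RNA junctions had fewer DNA junctions to match. The 13 joins held 3045 reads, or 16.2% of the reads. With moved positions joined, 12 were left, as 7285 to 7300 and 7287 to 7298 give the same joined sequence. The paired-end list held 12 of them and the single-read list 3, with 2 in both. They are 12 of the 601 paired-end joins and 3 of the 21 single-read joins. Of the 20 paired-end joins with the most reads, 1 was in RNA. Of the 5 RNA joins with the most reads, 0 were in DNA. Of the 20 with the most, 4 were, among them both 7287 to 7298 and 7285 to 7300.

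Read numbers of the shared joins did not keep the same order in RNA and DNA. In *sur-5*, 7287 to 7298 had 908 RNA reads against 65 paired-end reads. The same joined sequence, listed at 7285 to 7300, had 468 against 107. The *sur-5* joins 5064 to 5084 and 4479 to 4496 had 232 and 141 RNA reads against 141 and 95 paired-end reads. The *gfp* join 8201 to 8315 had 557 against 176, and the *sur-5* to *gfp* join 5883 to 7814 had 585 against 163. All 6 listed pairs of positions lie within *sur-5* and *gfp* exons. Of the joins after *gfp*, that of 8818 and 8920 had 32 RNA reads (21.9 to 45.2) against 1378 paired-end and 1038 single-read reads, the fourth and second highest of their lists. That of 8628 and 11056 had 2 RNA reads against 469 and 460.

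Also after *gfp*, the join of 8576 and 8601 had 77 RNA and 33 paired-end reads, and that of 10650 and 10694 had 19 and 21. The *sur-5* joins 6881 to 6963 and 4558 to 4695 had 16 and 7 RNA reads against 98 and 36 paired-end reads. The join of 10078 and 10131 had 1 RNA read and 2 single-read reads. Numbers of mapped reads per library were not used, so reads were not scaled between libraries.

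**Figure D4:**
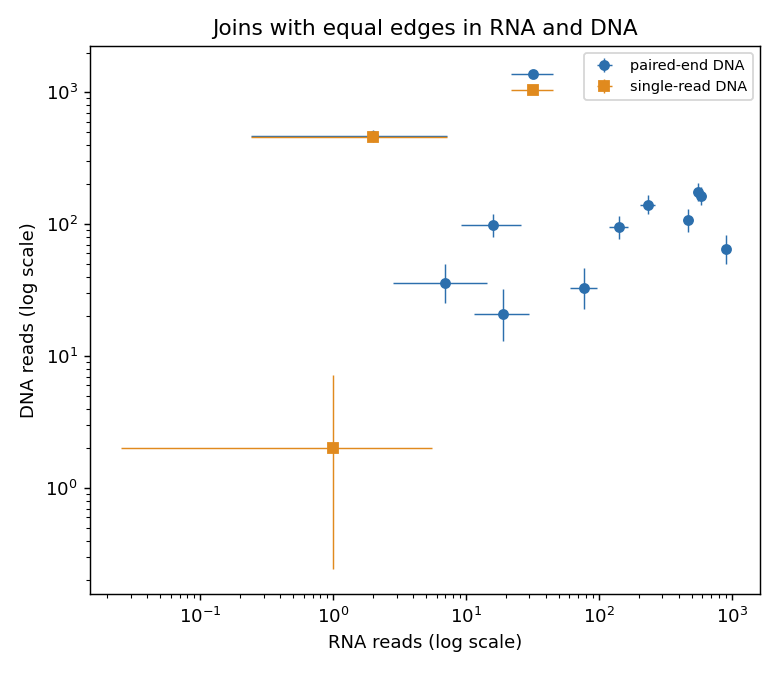
RNA reads (horizontal axis, log scale) and DNA reads (vertical axis, log scale) of the 13 joins with equal positions in RNA and DNA, with 12 points for paired-end and 3 for single-read DNA and exact 95% Poisson intervals. The joins 8818 to 8920 and 8628 to 11056 stand above the others, with 1378 and 469 paired-end reads against 32 and 2 RNA reads.

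Shared joins had more identical bases than the others, with a mean of 5.62 (n = 13 joins) against 1.30 (125 joins). At least 5 were found in 9 of the 13 and in 8 of the 125. Among the 9 are both 7285 to 7300 and 7287 to 7298, which give the same joined sequence. Joins at repeated letters can be placed at the same positions in separate events, so equal positions do not show that an RNA join was copied from a DNA join. The shared joins were 10 AT-AC, 2 GC-AG and 1 GT-AG, and 8 of the 13 were hairpin-like. None of the 12 exon-end joins was among them.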

How the data were processed

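Per the labels, DNA and poly-A-selected RNA of strain HC566 were sequenced as 3 libraries, 1 per group, and grouped by their titles. Per the submitters' processing notes and the series text, reads were mapped with TopHat2 to pTG96, and the deposited reference is its sequence followed by its reverse complement. For its version and settings, read trimming, strand protocol and numbers of mapped reads, the sources used here give nothing. The deposited lists give a count of spanning reads per junction, without normalization. In the authors' deposited table of DNA rearrangements, counts of reads, mean coverage as a signal and their percent are given, with positions that were raised by 1 here to count from base 1.

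From each junction's aligned blocks, the joined positions, mirror images, motif, identical bases and aligned lengths were computed with Python 3.11.15, numpy 2.4.6 and scipy 1.17.1, and plotted with matplotlib 3.10.9. These steps were tested on simulated junctions. RNA junctions with an edge before the reference numbered 43 and were left out. Introns were GT-AG junctions of at least 1000 RNA reads inside the *sur-5::gfp* reading frame (3699 to 8522, *gfp* from 7611), giving 8 in *sur-5* and 3 in *gfp*. Hairpin-like means a span of at most 100 bp. *sur-5* was matched by symbol to a RefSeq gene table (WBcel235) for its chromosome only. No test was run: with 1 library per group, counts carry exact Poisson and shares exact binomial 95% intervals. Where no read was listed, the limit is 3 reads.

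The members and lists were chosen with earlier results of these data known. Joins named were the 20 with most reads, all with equal DNA positions, all at an exon end, the 5 longest with at least 10 reads, the 5 with most identical bases and the 5 without a motif with most reads; others named were chosen after their values were seen. Alternatives were sums of mirror images, motif joins only, at least 10 reads, shifted positions joined, at least 20 aligned bases, 1 join per midpoint and other thresholds.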

Additional observations from a re-analysis of the deposited data

Results flagged for a closer look

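The RNA list holds junctions that the description of strand-switching joins does not use, because their lower edge falls before the first base of the reference. They have 68 reads in 43 junctions, above the 3 reads that a count of 0 allows. Of these, junctions that end in the reverse complement had 0 reads, so no strand-switching join was left out for this reason.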

How the results depend on the processing

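Of 68 combinations of a result with an alternative, 58 stayed close to the value given (a count within 1.5 times it, a share or median within its 95% interval) and 10 moved. Summing mirror images raised the reads to 28939. A span limit of 50 or 300 bp made 34.1% or 71.0% of joins hairpin-like. The share with a motif was 100% over motif joins, as it must be, 98.9% over joins with at least 10 reads and 99.1% with 1 join per midpoint. The share of positions in exons was 80.5% over joins with at least 10 reads. Joins with identical bases numbered 32 at a minimum of 3 and 3 at a minimum of 8. Over joins with at least 10 reads, 6 GT-AG joins had their GT at an exon end, because 6 of the 12 have fewer reads. Taking 1 join per midpoint and all alternatives for the exon-end count were chosen after seeing the data. No paired analysis was possible because each group has 1 library. Joins with few reads set the limits: 43 of the 138 had under 10 reads.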

Other observations

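Many RNA joins share a single position with a strand-switching join of paired-end DNA while their other position differs. This held for 49 of the 138 joins (35.5%, 27.6 to 44.1), and 15 more had both positions in the paired-end list but in different joins, while 62 had neither. Positions of paired-end joins cover 6.01% of the plasmid. That share counts single positions over all bases, while a join has a pair of positions and nearly all joins have a splice motif. The shares are thus not directly comparable. In the authors' deposited table of 16 DNA inversions, 2 have equal positions in RNA, 8818 to 8920 at 5.65% of DNA coverage with 32 RNA reads and 8628 to 11056 at 7.94% with 2 RNA reads. By the authors' deposited table, the inversion 8201 to 8496 in *gfp* made up 4.98% of coverage, and 4 RNA joins share 1 of its positions, among them 8201 to 8315 and 8381 to 8496. In the same authors' deposited table the inversion 5876 to 6173 made up 3.71%, and the RNA join of 5876 and 6089 shares its lower position.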
